A study of Mus musculus with 2 samples.

Results

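Intergenic transcript models are read-supported transcripts that the authors' annotation step placed outside every annotated gene. They were taken from the 2 gastrocnemius libraries of this long-read RNA sequencing study by that class label alone, with spike-in RNAs left out. The rule found 3586 intergenic models among 162296 models of endogenous transcripts, 1523 in replicate 1 and 2063 in replicate 2. Models that shared at least 1 base on the same strand were merged within and between the libraries, which gave 3003 loci. Gastrocnemius is a fast-contracting muscle of the calf, and both libraries came from male B6CASTF1/J mice aged 2 months, hybrids of C57BL/6J and CAST/EiJ, with 2 µg of RNA per library. The submitters number the libraries as biological replicates 1 and 2 and number the males differently, under 1 shared donor identifier. With 1 library per numbered replicate, biological and technical spread cannot be told apart. The libraries form 1 group, so the values describe these libraries and carry no p-value.

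An RNA that falls outside annotated genes can be the end of a gene whose annotated boundary stops too early, an unannotated long non-coding RNA, a transcript that runs away from a promoter on the opposite strand, or the unannotated part of a pseudogene. Processed pseudogenes, also called retrocopies, arise when a spliced messenger RNA is copied back into the genome. They lack the introns of their parent gene and can remain nearly identical to its messenger RNA, so a read may fit parent and copy equally well. Tissue identity rested on annotated genes: all 8 muscle fibre markers were read and took 31.6% of annotated gene reads in replicate 1 and 29.3% in replicate 2. Markers of red cells, connective tissue, endothelium, fat, macrophages and Schwann cells had reads for 18 of 21 genes, and each of these lists took at most 0.0737% of annotated gene reads in either library. Plin1, Adipoq and Cd68 had 0 reads in both libraries.

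Replicate 1 had 1132759 endogenous reads and replicate 2 had 1449423, so 1 read was worth 0.883 CPM (reads scaled to a common library total) in replicate 1 and 0.690 CPM in replicate 2. For a locus with 0 reads the upper limit is 3 reads, which is 2.65 CPM in replicate 1 and 2.07 CPM in replicate 2. Intergenic models took 5740 reads in replicate 1, 0.507% of endogenous reads (Wilson 95% interval 0.494% to 0.520%), and 6573 reads in replicate 2, 0.453% (0.443% to 0.465%). Intervals and floors cover counting error only, and no molecular identifiers are described for these reads. Most loci were thinly read: 2111 of 3003 loci, or 70.3%, rested on 1 read in all, 233 had at least 5 summed reads, 45 had at least 20 and 9 had at least 100.

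The reads were concentrated beside copies of a single glycolytic gene. The most read locus held 36.2% of intergenic reads in replicate 1 and 6.48% in replicate 2, and the 2 most read loci together held 44.8% in replicate 1 and 25.7% in replicate 2. The first lay at chr4:91851487-91851668 (mm10, minus strand) and the second at chr11:20334833-20335012 (minus strand). Both were unspliced, 182 and 180 bases long, and each began at the last base of a processed pseudogene, Gm12671 on chromosome 4 and Gm12033 on chromosome 11. Aligned to annotated protein-coding transcripts, both pseudogenes matched Gapdh best. Gapdh encodes glyceraldehyde-3-phosphate dehydrogenase, an enzyme of glycolysis that fast muscle uses heavily.

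The GENCODE M21 sequences show how little separates these copies from the parent. Numbered from 1 at the start codon, Gm12671 and Gm10359 matched the Gapdh coding sequence at all 1002 bases, and Gm12033 differed from it by a single substitution, T504C. Bases 475 to 534 are given for the parent (gene at chr6:125161715-125166467, minus strand) and in 3 copies (chr4:91851668-91852669, chr11:20335012-20336013 and chr5:105862701-105863702, all minus strand), with the base that differs from Gapdh in a capital.
Gapdh: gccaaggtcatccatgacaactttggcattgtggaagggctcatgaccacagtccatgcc
Gm12671: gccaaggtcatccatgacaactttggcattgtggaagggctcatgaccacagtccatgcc
Gm12033: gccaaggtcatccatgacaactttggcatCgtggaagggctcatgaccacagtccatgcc
Gm10359: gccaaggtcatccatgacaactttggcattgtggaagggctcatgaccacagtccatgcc

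The last 60 bases of the coding sequence, 943 to 1002, close with the TAA stop codon and were the same in Gapdh and in all 3 copies. This is where the annotated pseudogenes end and where the intergenic models begin.
Gapdh: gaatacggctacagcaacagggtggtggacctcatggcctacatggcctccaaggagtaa

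The Gapdh-201 transcript carries 178 further bases after this stop codon. In all, 9 intergenic loci lay within 1000 bases of a Gapdh-like processed pseudogene on the same strand, each beside a different copy, and all were at least 180 bases and at most 187 bases long. Together they took 2576 reads in replicate 1 and 1754 in replicate 2, or 44.9% and 26.7% of the intergenic reads of those libraries. Gapdh itself was given 60 reads in replicate 1 and 54 in replicate 2. The 9 annotated copies were given 1075 reads in replicate 1 and 1517 in replicate 2. Of all reads given to Gapdh, to the 9 copies and to the loci beside them, Gapdh thus had 1.62% in each library. Because the copies are near-identical to the parent, which of them a read came from is uncertain, and the counts of any single copy are those the authors' assignment gave it.

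At the 2 best-read copies, the division of reads between the copy and the intergenic model beside it differed between the libraries more than their sum did. The locus beside Gm12671 had 2076 intergenic reads in replicate 1 and 426 in replicate 2, a ratio of 6.24 after scaling to endogenous reads (exact 95% interval 5.62 to 6.94). Same-strand models of other classes that touched this locus, almost all of them the annotated Gm12671 transcript, had 49 reads in replicate 1 and 1473 in replicate 2. Together this made 2125 reads in replicate 1 and 1899 in replicate 2, and the log2 ratio of replicate 1 over replicate 2 was 0.52 for the sum against 2.64 for the intergenic model alone. Beside Gm12033 the division ran the other way, with 495 intergenic reads in replicate 1 and 1261 in replicate 2, and 936 reads on the annotated copy in replicate 1 and 20 in replicate 2. The sum at Gm12033 was 1431 reads in replicate 1 and 1281 in replicate 2, again a log2 ratio of 0.52. Of the less-read copies, Gm10359, Gm14760 and, at few reads, Gm4518 were divided as at Gm12033. The locus beside Gm10359 had 0 intergenic reads in replicate 1 and 24 in replicate 2, and the annotated copy had 32 in replicate 1 and 2 in replicate 2. The locus beside Gm14760 on chromosome X had 0 intergenic reads in replicate 1 and 28 in replicate 2, against 22 and 2 on the annotated copy. Beside Gm4518 there were 0 intergenic reads in replicate 1 and 6 in replicate 2, with 3 and 0 on the copy. Other copies showed a slight shift or another division: beside Gm10481 there were 3 intergenic reads in replicate 1 and 6 in replicate 2, with 10 and 8 on the copy, and beside Gapdh-ps15 there were 1 and 0, with 22 and 11 on the copy. The plot of same-strand reads by model class shows these divisions.

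**Figure D1:**
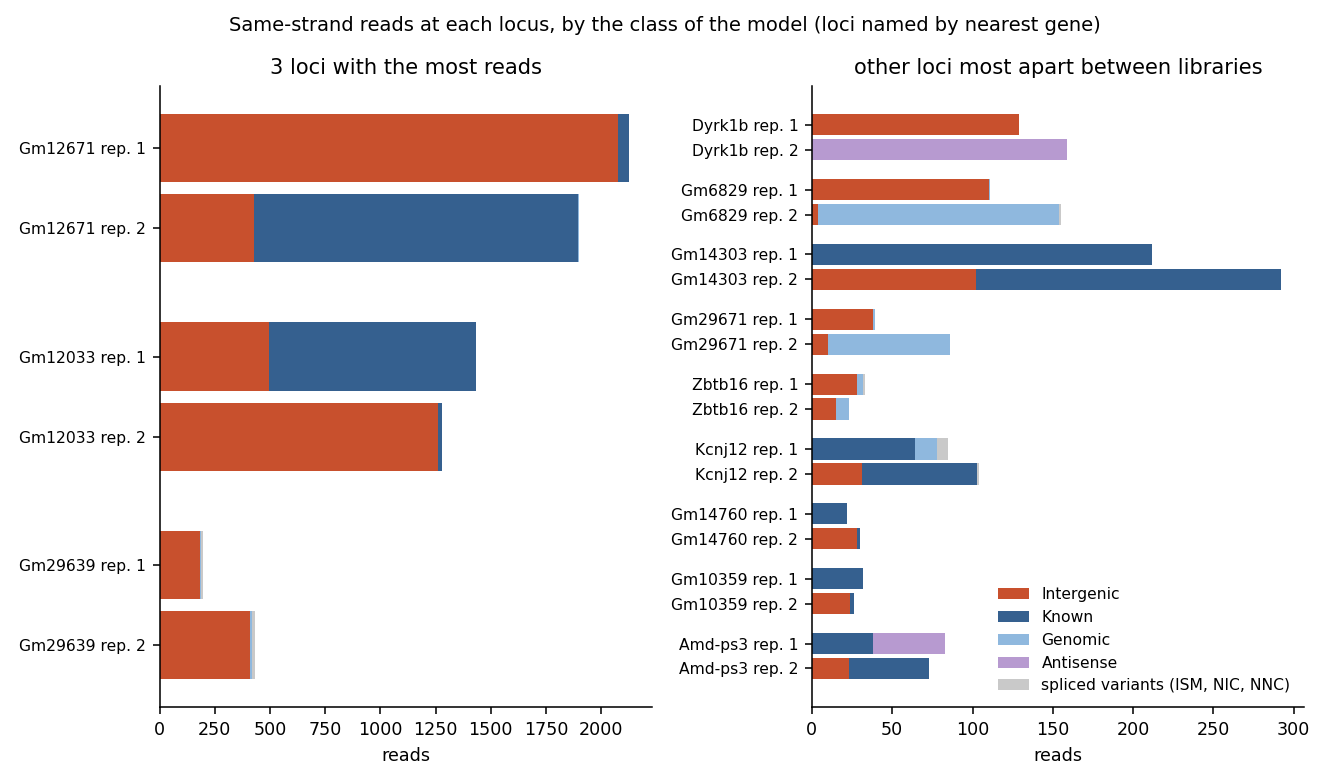
Reads (x axis) of all same-strand models that share a base with a locus, coloured by the class of the model, with replicate 1 above replicate 2 for each locus. Left, the 3 loci with the most intergenic reads; right, the other loci named for being most apart between the libraries. At Gm12671, 2076 of 2125 reads were intergenic in replicate 1, against 426 of 1899 in replicate 2.

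Loci beside processed pseudogenes were not confined to Gapdh copies, but most of their reads were. In all, 97 loci, 3.23% of the 3003, lay within 1000 bases of a processed pseudogene on the same strand, and they held 2908 reads in replicate 1 and 2185 in replicate 2, or 50.7% and 33.2% of intergenic reads. The 9 loci beside Gapdh copies held 2576 of these reads in replicate 1 and 1754 in replicate 2. By count there was no excess: on either strand, a processed pseudogene was the nearest gene of 13.6% of loci, and 17.9% of GENCODE genes are of this type. Of these 97, 78 lay downstream and 19 upstream, 72 shared the pseudogene's end base, and the best-matching parents numbered 79 different protein-coding genes. RefSeq, a second annotation of the same genome build (GRCm38.p6), draws many of these pseudogenes longer than GENCODE does. It has a pseudogene of the same symbol for 76 of the 97 loci; 54 of these loci fitted inside it with 10 bases of tolerance, and 32 had their far end within 10 bases of its end. RefSeq ends Gm12671 at base 91851487 of chromosome 4 and Gm12033 at base 20334833 of chromosome 11, which are the last bases of the 2 intergenic loci. The 54 loci held 46.7% of intergenic reads in replicate 1 and 30.6% in replicate 2.

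Other copies of housekeeping genes were among the most read loci. The locus beside Gm6969 (chr12:24637941-24638669, minus strand), a copy 97.7% identical to Cox7a2l, which encodes a respiratory chain assembly factor, had 76 reads in replicate 1 and 126 in replicate 2, within 2-fold after scaling. The models differed there: 667 bases from the pseudogene's end in replicate 1, and a model of 190 bases that did not reach the pseudogene in replicate 2. The locus beside Gm14303 (chr2:172509432-172509521, minus strand), a copy identical over its whole length to Rps29, a protein of the small ribosomal subunit, had 0 reads in replicate 1 and 102 in replicate 2. Same-strand reads on annotated Gm14303 numbered 212 in replicate 1 and 190 in replicate 2, so that with them the log2 ratio moved to -0.11. Loci upstream of 2 copies of Amd1, the S-adenosylmethionine decarboxylase of polyamine synthesis, differed from each other. Beside Amd-ps4 (chr4:51254027-51254362, minus strand) there were 46 reads in replicate 1 and 29 in replicate 2 with no other same-strand model, and beside Amd-ps3 (chr18:64449689-64450014, minus strand) there were 0 in replicate 1 and 23 in replicate 2, with 83 reads of other classes in replicate 1 and 50 in replicate 2. A locus near Gm6829 (chrX:9328976-9332625, minus strand), a copy of Golga7, whose product sits at the Golgi, had 110 reads in replicate 1, all on a model with an intron of 2523 bases. In replicate 2 the locus had 4 intergenic reads, on an unspliced model of 487 bases, and 150 reads that were classed as genomic, TALON's label for transcripts that overlap a gene without matching its splice junctions.

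Over all loci, the 2 libraries shared 549 loci, or 18.3%; 960 were read in replicate 1 alone and 1494 in replicate 2 alone. The shared loci held 78.2% of intergenic reads in replicate 1 and 67.4% in replicate 2. Detection depended on read number, as it did for annotated genes. Of loci with 2 summed reads, 43.1% were read in both libraries, against 46.6% of annotated genes with 2 summed reads, and with 3 or 4 reads the shares were 70.9% and 73.8%. Above this the loci lagged: with 5 to 9 reads 82.7% of loci were read in both libraries against 94.0% of annotated genes, and with at least 20 reads 38 of 45 loci were, against 6794 of 6796 annotated genes, 37 of 37 annotated lincRNA genes and 97 of 98 annotated processed pseudogenes. All 7 loci with at least 20 reads that were read in a single library had same-strand reads of another class in the other library. Among all 2454 loci read in a single library, 333 (13.6%) had such reads.

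**Figure D2:**
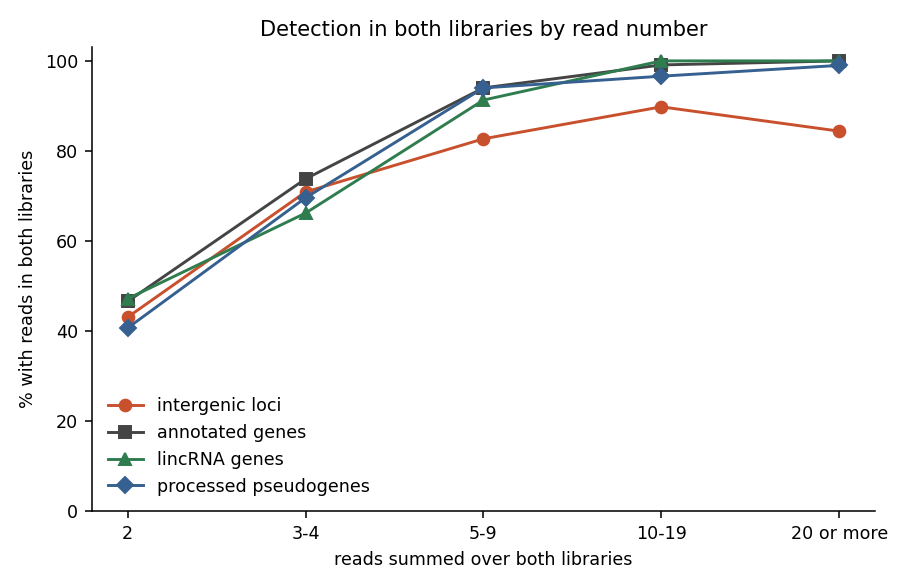
Percent of features with reads in both libraries (y axis) by the number of reads summed over both (x axis), for intergenic loci and for 3 sets of annotated features. Intergenic loci follow annotated genes up to 3 or 4 reads (70.9% against 73.8%) and lie below them from 5 reads on.

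Among the 45 best-read loci (20 or more reads over both libraries), 18 (40%) differed over 2-fold after scaling, with 0.5 added to each read count, 7 higher in replicate 1 and 11 higher in replicate 2. The same rule called 7.68% of 6796 annotated genes, 18.4% of 98 annotated processed pseudogenes and 13.5% of 37 annotated lincRNA genes. With 1 library on each side these ratios have no replicate check. Beside processed pseudogenes 8 of 11 loci were over 2-fold apart (72.7%), and elsewhere 10 of 34 (29.4%). When the reads of every same-strand model touching a locus were added, 12 of the 18 came within 2-fold. Over all 18, the median size of the log2 ratio was 0.67 with these reads and 2.43 without them. The 18 were chosen for a large ratio without these reads, so a fall in this median can follow from the choice alone. After the addition 9 of the 45 loci (20.0%) were over 2-fold apart, and some of these had been within 2-fold before it. Where a locus shares the end base of an annotated gene, the added reads include those of that gene. The ratio then moves towards that of the gene by construction. With only the reads of other unannotated models added, 15 loci were over 2-fold apart.

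Dyrk1b encodes a kinase of the DYRK family that is expressed in muscle. The locus most apart in favour of replicate 1 lay on the opposite strand and shared the last base of this gene as GENCODE draws it. At chr7:28187294-28189072 (minus strand, 1779 bases) it had 129 intergenic reads in replicate 1 and 0 in replicate 2, at least 55.0-fold higher with the floor of 3 reads per library. With the counting error of both libraries, the exact 95% interval of the ratio starts at 44.1. In replicate 2 the same strand held 159 reads that were classed as antisense instead, and the totals of 129 and 159 reads gave a log2 ratio of 0.06. Beyond the GENCODE end of Kcnj12, which encodes an inward rectifier potassium channel, a 2137-base locus (chr11:61071131-61073267, plus strand) had 0 intergenic reads in replicate 1 and 31 in replicate 2. RefSeq draws Kcnj12 longer on the same strand, over all 2137 bases of the locus. There, replicate 1 had 14 reads classed as genomic, and with all same-strand models the totals were 85 reads in replicate 1 and 104 in replicate 2.

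Other well-read loci stayed over 2-fold apart, with few or no reads of other classes. At chr15:103619063-103619240 (plus strand), 30552 bases from the lincRNA gene Gm49272, there were 46 reads in replicate 1 and 165 in replicate 2, a ratio of 0.357 (0.251 to 0.497); the model was 118 bases long in replicate 1 and 178 in replicate 2, with the same 3′ end. At chr4:133096035-133101553 (plus strand), an unspliced locus of 5519 bases that lay 6889 bases downstream of the lincRNA gene Gm26615, there were 42 reads in replicate 1 and 124 in replicate 2, with 1 and 4 reads of other classes. All 42 reads of replicate 1 were on a model of 5262 bases, whereas 106 reads of replicate 2 were on a model of 339 bases at the 5′ end and 18 on a separate model of 5050 bases. Gm49272 and Gm26615 themselves had 0 reads in both libraries.

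**Figure D3:**
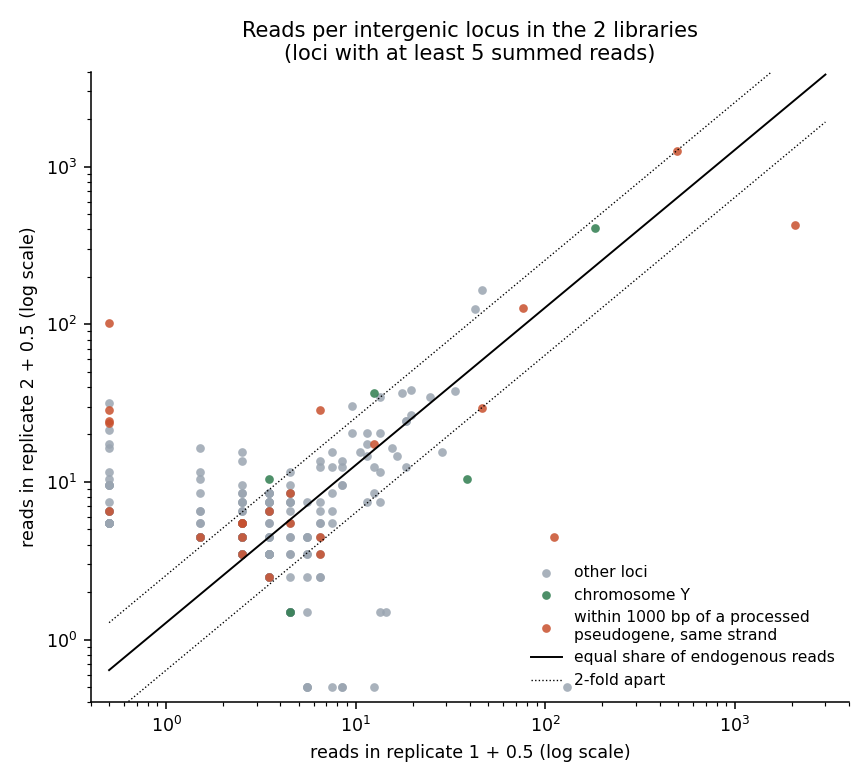
Reads per locus in replicate 1 (x axis) and replicate 2 (y axis), with 0.5 added, on log scales, for loci with at least 5 summed reads. Points on the left edge had 0 reads in replicate 1 and points at the bottom 0 reads in replicate 2; the solid line marks an equal share of endogenous reads and the dotted lines 2-fold. The most read locus had 2076 reads in replicate 1 and 426 in replicate 2.

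Distances of the loci to annotated genes were measured, but were not compared with those of random positions. The median distance to the nearest GENCODE M21 gene was 2632 bases (quartiles 674.5 and 9135, largest 446089), and 3 loci lay on scaffolds with no annotated gene. Same-strand loci were more often downstream than upstream of the nearest gene, 931 against 547, and opposite-strand loci were 809 downstream and 713 upstream. Same-strand downstream loci held 63.4% of reads in replicate 1 and 51.7% in replicate 2. They include the 2 loci beside Gm12671 and Gm12033, which alone held 44.8% of intergenic reads in replicate 1 and 25.7% in replicate 2. Over 10000 bases from any gene lay 700 loci, 23.3%, and they held 9.89% of reads in replicate 1 and 13.1% in replicate 2.

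The boundary of a locus often fell exactly on that of a gene. In 18.2% of the loci the model shared the terminal base of a gene, and never more than that base. In 426 of these (78%) it was the 5′ end of the locus that sat on the gene's boundary: 205 loci began on the last base of a same-strand gene, and 221 began on the first base of a gene of the opposite strand and ran away from it. Just 3 loci lay 1 to 300 bases from a gene, whereas 147 lay over 300 and up to 600 bases away. The deposited models are intervals and not reads, so where the underlying reads began and ended was not measured here.

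**Figure D4:**
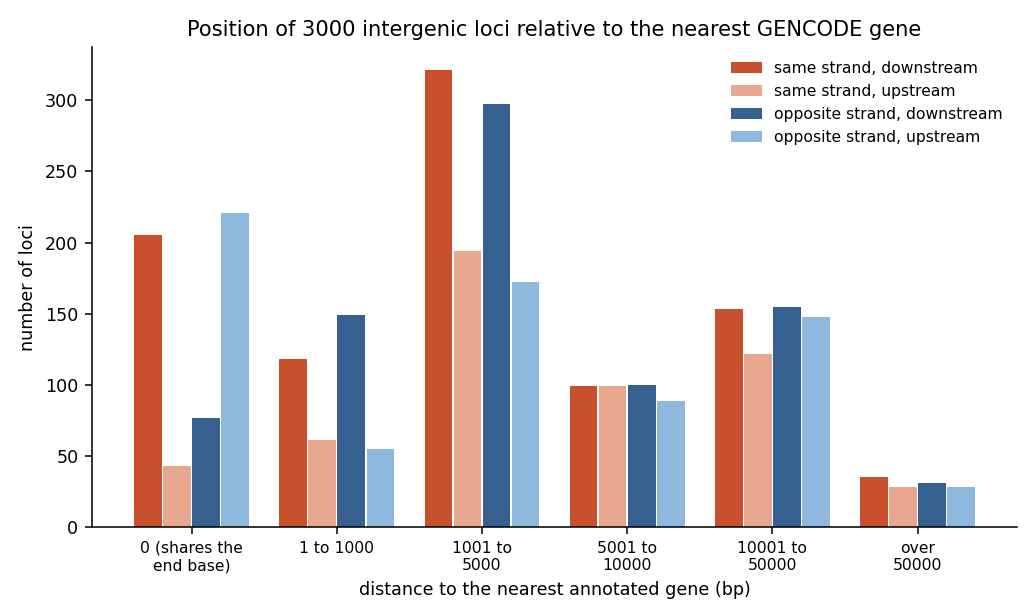
Number of loci (y axis) by distance to the nearest GENCODE gene (x axis, bp) for loci on the same or opposite strand, downstream or upstream of it. At distance 0, where the terminal base is shared, 205 loci were downstream on the same strand and 221 upstream on the opposite strand, against 43 upstream on the same strand and 77 downstream on the opposite strand.

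By the nearest gene on their own strand, 752 loci (25%) lay within 5000 bases downstream of a gene. Of these, 526 followed 505 protein-coding genes, 113 followed processed pseudogenes and 113 followed other genes. The protein-coding genes with such a locus were mostly active in this muscle: 459 of 505 (90.9%) had reads, and the median of these 459 was 23 reads in replicate 1 and 32 in replicate 2. Of all 22028 protein-coding genes 56.9% had reads, and those with reads had a median of 9.00 in replicate 1 and 13.0 in replicate 2. The 526 loci were 816.5 bases long at the median and took 10.1% of intergenic reads in replicate 1 and 12% in replicate 2.

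Whether such a locus is continuous with the gene before it was not tested. In 23 of the 526 the locus had more reads than the gene in both libraries. Many of these genes had 0 reads in both libraries, with at most 5 reads per library at their locus. Beyond the GENCODE end of Zbtb16, which encodes a zinc finger transcription factor, the locus chr9:48651780-48654297 (minus strand) had 28 reads in replicate 1 and 15 in replicate 2, while the gene had 8 in replicate 1 and 12 in replicate 2. RefSeq lists Zbtb16, without a recorded strand, over 2501 of the 2518 bases of this locus. Farther out, a locus 5803 bases beyond Hipk2, a homeodomain-interacting protein kinase gene, ended on the last base of the RefSeq gene (chr6:38687512-38688587, minus strand) and had 18 reads in replicate 1 and 24 in replicate 2, with 13 and 10 on the gene. Trdn encodes triadin, which anchors calsequestrin to the calcium release channel of the sarcoplasmic reticulum. The unspliced locus 763 bases beyond it (chr10:33477472-33480137, plus strand) had 24 reads in replicate 1 and 34 in replicate 2. In the same interval, same-strand models that join annotated splice sites in an unannotated way had 20 reads in replicate 1 and 54 in replicate 2.

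Gene lists for 3 muscle functions were looked up for same-strand loci downstream. Among 30 sarcomere genes 6 had a locus within 5000 bases downstream (20.0%), among 15 calcium handling genes 3 had (20.0%), and among 15 genes of glycolysis and phosphocreatine 2 had (13.3%); of all 2611 genes with at least 100 summed reads 6.40% had. The list genes are among the most highly read in muscle, and the lists were not compared with genes of equal level. Actn2, the alpha-actinin of the Z-disc, led the sarcomere list with 8 reads in replicate 1 and 13 in replicate 2 on a locus 1225 bases beyond the gene. Tnni2 (fast troponin I), Ttn (titin), Tpm3 (a tropomyosin), Myoz1 and Myot (Z-disc proteins) had 1 to 5 reads in all at theirs. Beyond Ckm, the muscle creatine kinase gene with 80874 reads in replicate 1 and 90068 in replicate 2, the intergenic locus had 0 reads in replicate 1 and 1 in replicate 2.

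A locus at the end of the host transcript of a muscle microRNA was picked after its values were seen. At chr2:180401220-180406631 (plus strand), 2738 bases downstream of Mir133a-2, it had 11 reads in replicate 1 and 17 in replicate 2, and it shared 583 bases with the RefSeq lncRNA Mir1a-1hg, which had no match in GENCODE M21. Mir1a-1 and Mir133a-2 give rise to miR-1 and miR-133, which are abundant in striated muscle. With all same-strand models the interval had 41 reads in replicate 1 and 43 in replicate 2. The sequence given here is not that of miR-1 itself. It is the 5p strand of Mir1a-1, which RefSeq places 12141 bases upstream of the locus at chr2:180389057-180389079, with its seed in capitals.
mmu-miR-1a-1-5p: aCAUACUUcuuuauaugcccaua

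Unspliced intergenic models were shorter than unspliced models of other classes. Of single-exon intergenic models, 26.6% in replicate 1 and 27.3% in replicate 2 were over 150 and up to 190 bases long, and the most common single length was 176 bases, with 76 models. In the antisense class the share of this length was 5.49% in replicate 1 and 6.08% in replicate 2, and in the genomic class 5.34% and 6.18%. Median lengths of single-exon models were 459.0 bases in replicate 1 and 360.0 in replicate 2 for the intergenic class, against 1328 and 1089 for the antisense class and 894.0 and 786.0 for the genomic class. The short length was as frequent in one library as in the other, and the 9 loci beside Gapdh copies all had it.

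**Figure D5:**
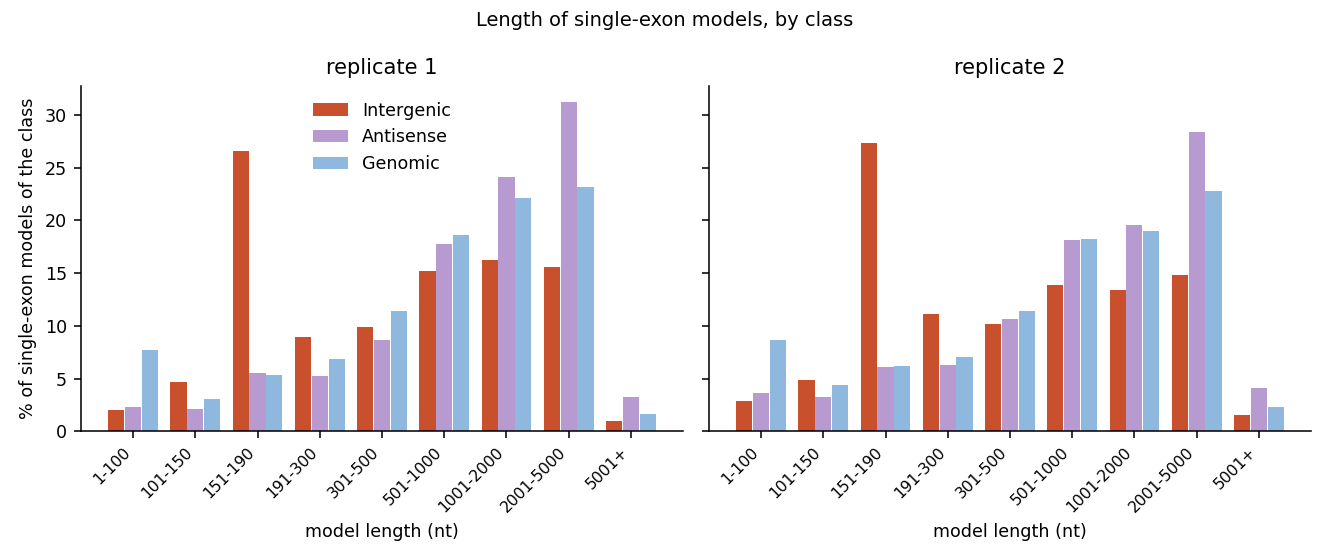
Percent of the single-exon models of a class (y axis) by length in nucleotides (x axis) for the intergenic, antisense and genomic classes, replicate 1 left and replicate 2 right. The bin from over 150 to 190 nucleotides holds 26.6% of intergenic models in replicate 1 and 27.3% in replicate 2.

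After merging, 724 unspliced loci had this length. Of these, 130 (18%) were read in both libraries, against 419 of 2279 other loci (18.4%), and they divided evenly by strand relative to the nearest gene, 361 on the same and 362 on the opposite strand. Their median distance from a gene was 5474 bases. Besides the Gapdh copies and the locus near Gm49272, well-read members included chr4:148590398-148590574 (minus strand), 929 bases from the spermidine synthase gene Srm on the opposite strand, with 19 reads in replicate 1 and 38 in replicate 2, and chr7:126643199-126643376 (minus strand), 5167 bases beyond 2510046G10Rik, with 19 in replicate 1 and 26 in replicate 2. The member chr9:78818588-78818757 (minus strand) had 17 reads in replicate 1 and 36 in replicate 2. No repeat annotation was used here.

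Long models were found on chromosome Y. The 19 loci there took 246 reads in replicate 1 and 480 in replicate 2, and 7 of them were between 4000 and 5000 bases long, of 96 loci of this size genome-wide. Of these 7, 4 were unspliced and 3 had a 2-exon model. The best-read of them, chrY:67834526-67839300 (minus strand, 4775 bases), lay 5035 bases upstream of the pseudogene Gm29639 and had 182 reads in replicate 1 and 409 in replicate 2, a ratio of 0.569 (0.475 to 0.680). A locus of 4777 bases at chrY:70898192-70902968 (plus strand) had 12 reads in replicate 1 and 36 in replicate 2. Another of 4312 bases at chrY:37763151-37767462 (minus strand), 41375 bases from any gene, had 38 reads in replicate 1 and 10 in replicate 2, with 1 and 76 same-strand reads classed as genomic. Its model was unspliced in replicate 1, whereas the 10 reads of replicate 2 were on a 2-exon model of 3126 bases with a gap of 35 bases between the exons. The long arm of the mouse Y chromosome consists largely of repeated gene copies, so these intervals may share sequence, and reads could be given to either; sequence identity between them was not measured.

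Spliced models were a minority. In 313 loci (10.4%) at least 1 model had more than 1 exon, and such models took 6.22% of intergenic reads in replicate 1 and 5.07% in replicate 2. Spliced loci were read in both libraries in 92 of 313 cases (29.4%), and unspliced loci in 457 of 2690 (17.0%). They also lay farther from genes, with a median distance of 5970 bases against 2420. Spliced loci spanned 4317 bases at the median, against 538 over all loci. Of the 313, 203 rested on 1 read, against 2111 of all 3003 loci. The shares read in both libraries were not compared at equal span or read number. The libraries held 348 distinct intron chains, 163 in replicate 1 and 219 in replicate 2, of which 34 were the same to the base in both. These 34 are 20.9% of the chains of replicate 1 and 15.5% of those of replicate 2. The 564 distinct introns had a median length of 1537 bases (quartiles 493.5 and 5122), and 4 were under 50 bases.

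Among loci with at least 10 summed reads, 4 had a spliced chain read in both libraries. The best read was a 3-exon model at chrX:73670338-73673150 (minus strand). As deposited, this model began on the first base of the creatine transporter gene Slc6a8, as GENCODE draws it, and ran away on the opposite strand. It had 18 reads in replicate 1 and 24 in replicate 2, with introns of 870 and 106 bases in each, while Slc6a8 had 18 reads in replicate 1 and 37 in replicate 2. RefSeq lists the lncRNA Gm32261 over 2744 of its bases, with no strand in the table used. A 2-exon transcript 505 bases beyond Mc5r (chr18:68342951-68343994, plus strand), the gene of a melanocortin receptor, had 7 reads in replicate 1 and 8 in replicate 2, with an intron of 764 bases, whereas Mc5r itself had 1 read in replicate 1 and 0 in replicate 2. A locus 695 bases beyond Cdv3-ps (chr14:43118786-43120242, minus strand) had 6 reads in replicate 1 and 4 in replicate 2, with a gap of just 57 bases between its exons. A chromosome Y locus (chrY:77486383-77491162, plus strand) had 3 in replicate 1 and 10 in replicate 2, with an intron of 954 bases. Splice dinucleotides were not checked at these loci.

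Some loci that GENCODE M21 leaves without a gene overlapped a gene in RefSeq. Of the 3003 loci 354 (11.8%) shared over 1 base with a RefSeq gene of the same strand, 317 (10.6%) with one of the opposite strand and 323 (10.8%) with one whose strand is not in the table used; a locus can count in more than 1 of these, and 921 loci had any. On the same strand, 178 loci (5.93%) overlapped a RefSeq lncRNA with no match in GENCODE by symbol, older symbol, Ensembl ID or Entrez ID. Spliced loci made up 84 of these 178, which is 26.8% of all 313 spliced loci, while the remaining 94 were 3.49% of the 2690 unspliced loci. The 5′ end of 53 loci lay within 200 bases of a RefSeq start site on the same strand, and for 52 of these loci the gene had no match in GENCODE.

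Among these loci 3 had at least 10 summed reads, and their RefSeq start windows (250 bases before to 50 after the start, GRCm38.p6) are shown with the part inside the intergenic locus in capitals. They were chosen after their values were seen. The window of Gm38768 (chr6:14608201-14608500, plus strand) belongs to a 3-exon locus at chr6:14608311-14611919, 37286 bases from the nearest GENCODE gene, which had 13 reads in replicate 1 and 1 in replicate 2. This locus began 140 bases before the RefSeq start. That start lies in the first intron of its models, 94 bases long in replicate 1 and 121 in replicate 2. Part of the capitals is therefore intron. The window of Gm36149 (chr5:111490630-111490929, plus strand) belongs to a locus with 3 reads in replicate 1 and 8 in replicate 2 that began 12 bases before the RefSeq start. The window of 2310047K21Rik (chr2:104816672-104816971, plus strand) belongs to a locus with 6 reads in replicate 1 and 4 in replicate 2. This locus began 162 bases before the RefSeq start, on the first base of Qser1 as GENCODE draws it, and ran away from it. RefSeq draws Qser1 longer, over all 1919 bases of the locus, on the opposite strand.
Gm38768: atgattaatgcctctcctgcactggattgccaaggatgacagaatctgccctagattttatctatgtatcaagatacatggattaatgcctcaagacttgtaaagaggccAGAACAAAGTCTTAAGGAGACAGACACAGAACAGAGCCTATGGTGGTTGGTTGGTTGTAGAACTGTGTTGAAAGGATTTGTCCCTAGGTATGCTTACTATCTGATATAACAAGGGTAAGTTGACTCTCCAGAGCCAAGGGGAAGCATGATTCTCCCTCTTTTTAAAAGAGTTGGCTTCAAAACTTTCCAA
Gm36149: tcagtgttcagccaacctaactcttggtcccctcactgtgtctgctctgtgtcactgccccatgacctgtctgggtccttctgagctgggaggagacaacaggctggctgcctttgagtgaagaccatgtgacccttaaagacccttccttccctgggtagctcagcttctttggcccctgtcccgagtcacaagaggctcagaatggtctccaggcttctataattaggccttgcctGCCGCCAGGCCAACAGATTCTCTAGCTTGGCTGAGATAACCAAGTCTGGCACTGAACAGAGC
2310047K21Rik: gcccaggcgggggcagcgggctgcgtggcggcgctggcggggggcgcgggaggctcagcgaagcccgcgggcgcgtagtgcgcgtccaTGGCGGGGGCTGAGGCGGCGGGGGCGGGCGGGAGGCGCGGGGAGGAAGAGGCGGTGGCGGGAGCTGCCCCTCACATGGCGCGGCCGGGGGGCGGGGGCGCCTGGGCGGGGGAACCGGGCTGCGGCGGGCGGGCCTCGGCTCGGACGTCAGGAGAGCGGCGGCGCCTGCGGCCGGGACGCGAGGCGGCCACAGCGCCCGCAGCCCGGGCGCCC

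The windows differ in base composition. That of 2310047K21Rik was 84.3% G or C with 49 CG dinucleotides, above the 95th percentile of 32851 RefSeq start windows (73.7% and 37.0), whereas those of Gm38768 (41.3%, 0 CG) and Gm36149 (54.7%, 2 CG) lay within the range between the 5th and 95th percentiles. Neither the TATA-box letters TATAAA nor CAGCTG, a form of the E-box that myogenic factors bind, was found on either strand of the 3 windows; 13.6% and 16.3% of all windows hold them.

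The loci farthest from any GENCODE gene, among those with at least 10 reads, were 5, of which 3 were unspliced. The farthest lay 119082 bases from Ajap1 (chr4:153601893-153606488, plus strand, 4596 bases) and had 18 reads in replicate 1 and 12 in replicate 2. A locus of 189 bases, 88084 bases from Gm9947 (chr1:14664665-14664853, plus strand) had 6 reads in each library, and a short locus 70772 bases from Dok6 (chr18:89840300-89840450, plus strand) had 2 in replicate 1 and 9 in replicate 2. RefSeq lists the lncRNA Gm41800, without a recorded strand, over all 151 bases of the locus near Dok6. Other well-read loci were close to genes. One of 4970 bases lay 351 bases downstream of the proteasome subunit gene Psmd4, on the other strand (chr3:95027374-95032343, plus strand). It had 33 reads in replicate 1, on a model of 1889 bases, and 37 in replicate 2, on a model of 4970 bases. One of 3928 bases 784 bases from Mir8091 (chr19:41589573-41593500, minus strand) had 13 in replicate 1 and 34 in replicate 2, inside RefSeq's longer Lcor gene on the opposite strand.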

How the data were processed

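TALON, named in the file headers, assigned the authors' long reads to models on mm10 with GENCODE M21, per the submitters' processing notes. The deposited values are whole-number read counts per model, not normalized. Aligner and tool versions: not given in the sources used here. Loci, nearest genes (GENCODE M21 boundaries) and overlaps were computed from these counts and model coordinates with Python 3.11.15 and pandas 2.3.3. Scaling used endogenous reads; edgeR 4.0.16 supplied TMM factors for an alternative. Pseudogene parents are the best blastn 2.17.0 hits (e-value up to 1e-10) among GENCODE protein-coding transcripts. Merging, nearest genes and ratio calls were tested on simulated data. Sequences come from GENCODE M21 and RefSeq. Named loci are the 20 with the most reads, spliced loci with at least 10 reads and a chain in both libraries (up to 15), the 5 most apart in each direction with at least 20 reads, and the 5 farthest from genes with at least 10 reads. The members and lists were chosen with earlier results of these data known.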

Additional observations from a re-analysis of the deposited data

How the results depend on the processing

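Counts of loci depend on the read minimum, since most models rest on 1 read. With models of at least 2 reads there were 705 loci, 177 of them in both libraries and 60 spliced; with at least 5 reads there were 158 loci and 51 in both. A single library alone gave 1511 to 2050 loci. Same-strand loci downstream of a gene numbered 334 within 1000 bases and 91 among loci with at least 5 summed reads. Spliced loci read in both libraries numbered 92. Loci over 2-fold apart numbered 34 with a minimum of 10 summed reads and 7 with a minimum of 50, and 9 with the reads of all overlapping same-strand models added (this alternative was picked after the data had been seen). The intergenic share of endogenous reads was 0.374% without the most read locus and 0.276% without loci beside processed pseudogenes (picked likewise), and 0.453% to 0.507% with 1 library left out. Merging across 1000 bases or without strand, thinning replicate 2 to the depth of replicate 1 (480 shared loci), other denominators, a limit of 10000 bases, protein-coding genes only, median-ratio or TMM scaling and the reads of other unannotated models kept each count within 1.5 times and the share within its SD. No paired analysis was possible because there is a single group. Checks of A-rich sequence after the 3′ end, of polyadenylation signals and of splice dinucleotides were not run, since no genome sequence was used. At this depth a locus with 0 reads is not shown to be silent.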
